A study of Mus musculus with 8 samples.

Results

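Myelin is the lipid-rich sheath that oligodendrocytes wrap around axons, and in the mouse brain it is being laid down in quantity in the first weeks after birth. Oligodendrocytes arise from dividing precursor cells, which carry the receptor PDGFRA and the proteoglycan NG2 (encoded by *Cspg4*), lose both as they commit, and then switch on the genes of compact and non-compact myelin. These 9 genes were chosen by name: 6 of myelin and myelinating oligodendrocytes (*Mbp*, *Mog*, *Mag*, *Mobp*, *Cnp* and *Cldn11*) and 3 of precursors (*Pdgfra*, *Cspg4* and *Olig2*, the last a transcription factor of the whole lineage). All 9 were among the 20308 gene symbols in the count files. The question is how much of their RNA came through a CD11b pull-down that is meant for microglia, and whether it varied by mouse or by genotype.

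RNA was sequenced from cells pulled down with CD11b magnetic beads from the right brain hemisphere, after myelin had been removed with Percoll, in 4 control mice and 4 mice overexpressing CSF1 (CSF1 OE), killed at 14 or 15 days of age, with 1 library per mouse. Both groups were F1 offspring of C57Bl/6 and CD1 mice. The CSF1 OE mice carry a TRE/tTA transgene that makes secreted CSF1 in a subset of GFAP+ cells, so the transgene is driven in other cells than the beads select. Which transgenes, if any, the control mice carried is not given in the sources used here. Mice are named by genotype and by the number in the library title, which is read here as an animal number. Total counts ran from 12053280 to 15475488 per library. *Csf1* itself had between 139 and 364 CPM in control mice, against between 167 and 400.1 CPM in the CSF1 OE mice, overlapping, so that it does not check the genotype labels in these cells.

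CPM are counts scaled to a common library size (per-million units) after TMM normalization, which assumes that most genes do not change. The 10 microglial marker genes, led by *Csf1r* (the receptor of CSF1, control 9722 ± 2240 CPM, CSF1 OE 10091 ± 1454 CPM, SD, n = 4 each), summed to between 22183 CPM in control mouse 1934 and 39763 CPM in CSF1 OE mouse 2019. Control mouse 1934 stood lowest in microglial RNA among the 8 libraries.

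The start regions of 3 genes are shown as examples of the sequences in front of the lineage genes. They were taken from RefSeq (GRCm38.p6), with letters that match ACAAAG or ACAATG (a core recognised by SOX proteins, such as SOX10) or CANNTG (an E-box, recognised by OLIG2 and its relatives) in capitals on either strand. RefSeq windows were used for 8 of the 9 genes. *Mbp* was left out, so the counts of matches do not cover it. The lines run 5′ to 3′ and end before the annotated start of the gene.
Mobp, chr9:120149492-120149706, plus strand: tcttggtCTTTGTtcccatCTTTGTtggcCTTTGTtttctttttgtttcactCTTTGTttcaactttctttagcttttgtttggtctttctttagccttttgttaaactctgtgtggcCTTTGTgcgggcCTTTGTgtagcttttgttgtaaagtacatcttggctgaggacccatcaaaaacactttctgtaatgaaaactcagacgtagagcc
Mag, chr7:30914874-30915113, minus strand: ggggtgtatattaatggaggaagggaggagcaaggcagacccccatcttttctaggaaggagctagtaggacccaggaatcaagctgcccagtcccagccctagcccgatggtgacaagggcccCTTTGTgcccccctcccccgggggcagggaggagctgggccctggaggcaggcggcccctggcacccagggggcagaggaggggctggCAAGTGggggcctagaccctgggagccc
Pdgfra, chr5:75152001-75152250, plus strand: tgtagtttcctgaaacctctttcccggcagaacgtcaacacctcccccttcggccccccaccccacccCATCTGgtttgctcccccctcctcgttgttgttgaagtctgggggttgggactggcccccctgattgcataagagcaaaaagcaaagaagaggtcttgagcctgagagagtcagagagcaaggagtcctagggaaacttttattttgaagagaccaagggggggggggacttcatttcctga

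The *Mobp* stretch held 6 SOX core matches and the *Mag* stretch 1, while the *Pdgfra* stretch held 1 E-box and no SOX core match. Over the full 250 bases, 4 of the 8 genes held ACAAAG or ACAATG, against 25.2% of 32851 RefSeq promoter windows of that length. CANNTG was in 3 of the 8, against 66.2% of all windows. Such matches describe the letters and are not binding sites.

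The 6 myelin genes were well above the detection limit in every library, and together they made up between 0.0789% and 0.281% of the TMM-scaled library size. *Mbp* encodes myelin basic protein, which holds the cytoplasmic faces of compact myelin together, and lies on chromosome 18 from 82475146 to 82585637 (GRCm38, GENCODE M21, as for all positions of genes). Its values were 482, 514, 729 and 1077 CPM in control mice 1827, 1872, 1874 and 1934, against 621, 798, 1497 and 272 CPM in CSF1 OE animals 1931, 1932, 1936 and 2019. The CSF1 OE mice held both the highest and the lowest value, and the groups overlapped. The *Mbp* locus also encodes golli proteins, and a count per gene does not tell these transcripts apart.

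*Mog* (chromosome 17, 37010743 to 37023398) encodes a glycoprotein of the outermost myelin surface. It had 74.8, 65.6, 119 and 151 CPM in the control mice and 62.8, 85.7, 104 and 42.0 CPM in the CSF1 OE mice, in the same order of animals. *Mag* (chromosome 7, 30899176 to 30914873), an adhesion protein facing the axon, had 222, 215, 333 and 387 CPM in control mice, against 214, 229, 315 and 122 CPM in the CSF1 OE mice. In both genes control mouse 1934 was highest, CSF1 OE mouse 2019 was lowest, and the groups overlapped.

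*Mobp* (chromosome 9, 120149707 to 120181484), a small basic protein of compact myelin, had 181, 166, 271 and 338 CPM in control mice, against 159, 200.2, 246 and 85.1 CPM in the CSF1 OE mice. *Cnp* (chromosome 11, 100574904 to 100591729), an enzyme of non-compact myelin that appears early in the lineage, had 319, 303, 447 and 519.7 CPM in control mice, against 322, 325, 477 and 201 CPM in the CSF1 OE mice. *Cldn11* (chromosome 3, 31149920 to 31164324), the tight junction protein of the myelin sheath, had 134, 128, 205 and 241 CPM in control mice, against 114, 153, 172 and 67.2 CPM in the CSF1 OE mice. The order of the animals was again similar, with 1934 highest and 2019 lowest in these 3 genes. *Cnp* shares 154 exon bases with *Dnajc7* on the opposite strand, and the strand setting of the counting is not given in the sources used here.

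The precursor genes were present at lower levels. *Pdgfra* (chromosome 5, 75152292 to 75198215) encodes the receptor through which PDGF keeps precursors dividing. It had 11.1, 18.6, 26.3 and 38.6 CPM in control mice, against 23.7, 30.2, 52.5 and 12.1 CPM in the CSF1 OE mice. Its lowest value was in control mouse 1827, the only case among the 9 genes in which 2019 was not lowest.

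*Cspg4* (chromosome 9, 56865033 to 56899870) had 9.61, 9.06, 15.3 and 15.7 CPM in control mice, against 11.1, 10.9, 16.6 and 6.73 CPM in the CSF1 OE mice. *Olig2* (chromosome 16, 91225457 to 91228677) had 8.06, 8.23, 11.3 and 14.2 CPM in control mice, against 9.36, 8.16, 19.2 and 3.19 CPM in the CSF1 OE mice. For *Mbp* and the 3 precursor genes CSF1 OE mouse 1936 was highest, and the groups overlapped in each. *Cspg4* is also expressed by pericytes and *Pdgfra* by fibroblasts of the vessels and meninges. Counts ran from 36, for *Olig2* in mouse 2019, to 21960, for *Mbp* in mouse 1936.

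**Figure D1:**
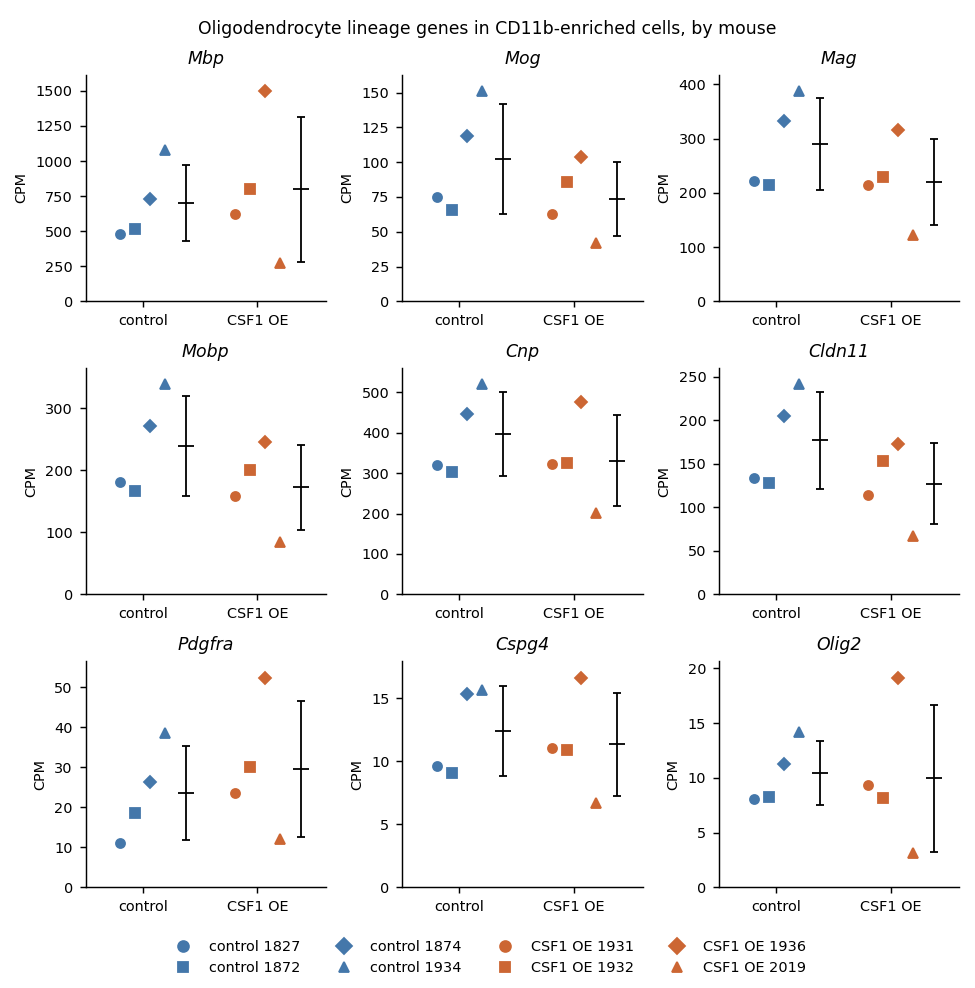
CPM (linear axis) of each of the 9 genes in control (blue) and CSF1 OE (orange) mice; each symbol is 1 mouse, and the black bar gives the mean ± SD of 4 mice. Control mouse 1934 or CSF1 OE mouse 1936 was highest in every panel, and CSF1 OE mouse 2019 was lowest in 8 of 9.

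Levels of different genes were compared as CPM per kilobase of merged exons. By the mean over 8 mice the order was *Cnp*, *Mbp*, *Cldn11*, *Mag*, *Mog*, *Mobp*, *Olig2*, *Pdgfra* and *Cspg4*. *Cnp* had 109 ± 28.5 and *Mbp* 82.7 ± 32.3 CPM per kilobase in control mice (SD, n = 4), and their neighbours in this order overlapped in spread. The step from *Mobp* to *Olig2* was larger than the spread, since the lowest *Mobp* value was 12.4 and the highest *Olig2* value 7.57 CPM per kilobase. Among all tested genes with a length, the 6 myelin genes stood between the percentiles 89.0 (*Mobp*) and 97.2 (*Cnp*), and the precursor genes between 16.5 (*Cspg4*) and 41.7 (*Olig2*). Merged exons include those of rare transcripts, so a gene with long alternative exons, such as *Mbp*, can come out low on this scale.

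No member was called between the genotypes. Genes were tested with edgeR's quasi-likelihood test over 13407 genes and called where the adjusted p was below 0.05 and the fold change lay below 0.7 or above its reciprocal. Of all genes 0.44% were called, 0.388% higher and 0.0522% lower in CSF1 OE. Of the 9 members, 7 were lower and 2 higher in CSF1 OE, where 55.2% of all genes tested were lower. Of the members, 0 had an unadjusted p under 0.05 (16.5% of all genes did, 6.44% lower and 10.1% higher), and 0 had groups that did not overlap (10.3% of all genes, 3.45% lower and 6.84% higher). DESeq2 also called 0 of the 9. Their median log2 fold change was -0.26, beside -0.034 over all genes tested.

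All myelin genes but *Mbp* lay close together. *Cldn11* had a mean of 177 ± 55.4 CPM in control mice, against 127 ± 46.5 CPM in the CSF1 OE mice (SD, n = 4 each), which gave -0.48 on the log2 scale (SE 0.31, 95% interval -1.17 to 0.21, adjusted p = 0.464 from edgeR). *Mog*, with a log2 fold change of -0.48, and *Mobp*, with -0.47, had almost the same value, and *Mag* (-0.39) and *Cnp* (-0.26) followed. *Mbp* went the other way in the mean, with 700.5 ± 274 and then 797 ± 515 CPM, which gave 0.19 on the log2 scale (SE 0.46, 95% interval -0.86 to 1.24, adjusted p = 0.858 from edgeR).

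*Pdgfra* had 23.6 ± 11.7 CPM in control mice, against 29.6 ± 17.0 CPM in the CSF1 OE mice, which gave 0.33 on the log2 scale (SE 0.47, 95% interval -0.72 to 1.38, adjusted p = 0.748 from edgeR). *Cspg4* had a log2 fold change of -0.13 (95% interval -0.79 to 0.53) and *Olig2* of -0.061 (95% interval -1.08 to 0.96). In each of the 9 genes the interval held 0 and reached below a fold of 0.7, so that a fall of the size of the threshold lay within it. For *Mbp* (fold up to 2.35), *Pdgfra* (2.60), *Olig2* (1.94) and *Cspg4* (1.445) it also passed the upper threshold. In bulk RNA, fewer cells of a type and less RNA per cell cannot be told apart.

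The spread between mice limited these comparisons. The highest mouse was from 2.47 (*Cspg4*) to 6.01 times (*Olig2*) the lowest, with a median of 3.6 over the 9 genes against 1.65 over all genes tested. edgeR's biological coefficient of variation, the relative SD between mice of 1 genotype beyond counting error, lay between 0.268 for *Cnp* and 0.455 for *Pdgfra*. The median over all genes was 0.175, and the members stood between the percentiles 73.3 and 93.3. Standard errors of their log2 fold changes ran from 0.27 to 0.47, where the median gene had 0.16.

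**Figure D2:**
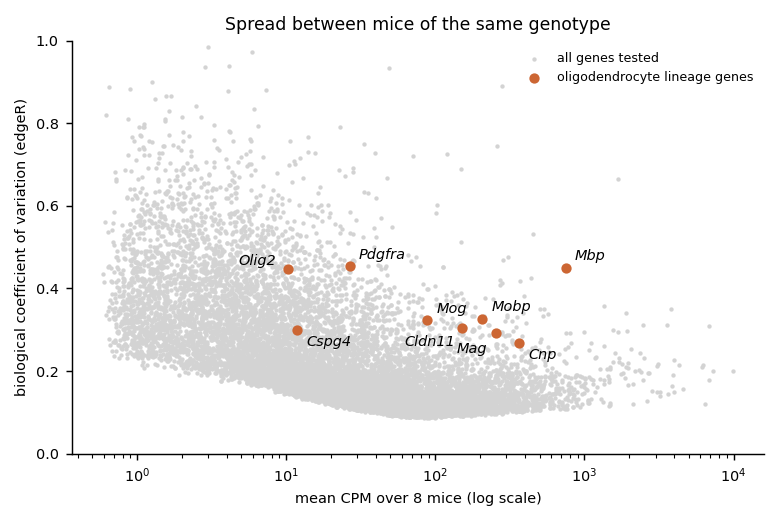
Biological coefficient of variation from edgeR against mean CPM over 8 mice (log axis); each grey point is 1 of 13407 genes tested, and the 9 lineage genes are orange (8 genes above 1 are outside the plot). The lineage genes lie between 0.268 and 0.455, above the median gene at 0.175.

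The 9 genes varied together from mouse to mouse. Over the 8 mice, the log2 CPM of *Mbp* was related to that of each of the other 8 genes, with Pearson's r from 0.8294 (*Cldn11*) to 0.948 (*Olig2*) and Spearman's rho from 0.786 to 0.976 (*Pdgfra*). Two-sided exact permutation p-values, adjusted by Benjamini-Hochberg over these 8 relations, ran from 0.00251 to 0.0139 for r and from 0.00317 to 0.0279 for rho. The unadjusted p ran from 0.00062 to 0.0139 for r and from 0.000397 to 0.0279 for rho. Without the mice farthest from the median of *Mbp*, 2019 and 1936, r was from 0.789 (*Mag*) to 0.925 (*Pdgfra*) over 6 mice, and the exact permutation p from 0.00972 to 0.0722, so that for 5 of the 8 genes p was no longer under 0.05. Without mouse 2019 alone, the adjusted exact permutation p for r was 0.0991 for *Mog*, *Mag* and *Mobp*, 0.0528 for *Cnp* and 0.122 for *Cldn11*. It stayed under 0.05 for *Pdgfra*, *Cspg4* and *Olig2*. Control and CSF1 OE mice, or either set of animal numbers, hold 4 mice each, too few for a correlation of their own.

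This pattern of mice was shared by many other genes. The mean z score of the 6 myelin genes had r over 0.9 with 5.61% of the 13398 other genes tested, and that of the 3 precursor genes with 1.96%, given as descriptions over 8 mice that share library composition. The 10 genes most like the myelin pattern were *Nfasc*, an adhesion molecule of paranodes (r = 0.994), *Shisa4*, *Cuedc1*, *Arhgef17*, *Slc22a8*, an organic anion transporter, *Cmtm5*, *Gpr37*, a receptor of myelinating oligodendrocytes, *Ppfibp1*, *Ptchd2* and *Fermt2* (r = 0.990). The 10 most like the precursor pattern were *Sox6*, a transcription factor of precursors (r = 0.982), *Abat*, which degrades GABA, *Bcas1*, a marker of newly formed oligodendrocytes, *Ddah1*, *Aldh5a1*, *Mlc1*, *Asrgl1*, *Mmd2*, *Hes5*, a Notch target, and *Epcam* (r = 0.972).

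RNA of other brain cells followed the same animals. Summed over fixed marker lists, mouse 2019 was lowest for astrocytes, neurons, endothelial cells, mural cells, fibroblasts and choroid plexus with ependyma, and it was highest for microglia. The 13 endothelial genes summed to between 1256 and 2110 CPM in control mice, against between 583 and 1397 CPM in the CSF1 OE mice. All 13 were lower in CSF1 OE, with a median log2 fold change of -0.71 and 0 called. *Vwf*, which encodes von Willebrand factor and is the most abundant of them, had 224 to 409 CPM in control mice, against 104 to 183 CPM in the CSF1 OE mice, which do not overlap (log2 fold change -1.03, adjusted p = 0.0642 from edgeR). With a term for animal numbers, described with the fits of the 9 genes, 12 of the 13 were called lower, *Vwf* among them (-1.21, adjusted p = 0.0270 from edgeR). The 12 astrocyte genes summed to between 424 and 795 CPM in control mice, against between 349 and 819.7 CPM in the CSF1 OE mice, with 9 of 12 lower. For the 13 neuronal genes the sums were 104 to 405 and 50.8 to 255 CPM (10 of 13 lower), and for the 8 of choroid plexus and ependyma 3809 to 5148 and 1512 to 5957 CPM (6 of 6 tested lower).

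The 12 mural genes, of the cells that share *Cspg4*, summed to between 189 and 397 CPM in control mice, against between 178 and 336 CPM in the CSF1 OE mice (8 of 12 lower). The 8 fibroblast genes, of the cells that share *Pdgfra*, summed to between 180 and 379 CPM and between 101 and 252 CPM (7 of 7 tested lower). None of the genes of these lists was without a count in all 8 libraries. The part of these other cells in the levels of the 9 genes was not tested.

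**Figure D3:**
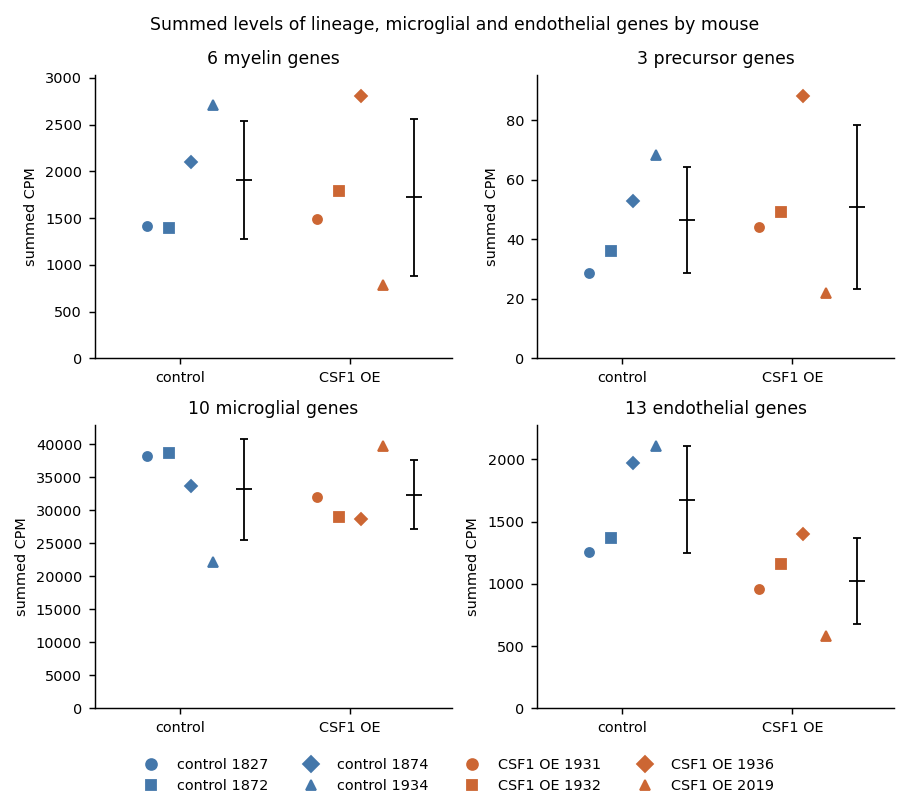
Summed CPM (linear axis) of the 6 myelin, 3 precursor, 10 microglial and 13 endothelial genes in control (blue) and CSF1 OE (orange) mice; each symbol is 1 mouse, and the black bar gives the mean ± SD of 4 mice. Mouse 2019 was lowest in the myelin, precursor and endothelial sums and highest in the microglial sum.

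Summed over the 6 myelin genes, control mice had 1906 ± 633 CPM and CSF1 OE mice 1721 ± 840 CPM (SD, n = 4 each), a log2 ratio of -0.15. For the 3 precursor genes the sums were 46.5 ± 17.8 and 50.9 ± 27.5 CPM, a log2 ratio of 0.13. Both differences were smaller than the SD within either genotype.

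The animal numbers divide the mice unevenly. Those from 1931 to 1936 are 1 control and 3 CSF1 OE mice, and the other 4 are 3 control and 1 CSF1 OE mice. The numbers of these other 4, 1827, 1872, 1874 and 2019, lie on both sides of the range. They are what the range leaves over, not a known group. The labels give no litter or sequencing batch. Within the range, the mean of the 3 CSF1 OE mice was below control mouse 1934 in 9 of 9 genes, with log2 ratios from -0.84 (*Mog*) to -0.12 (*Pdgfra*). Among the other numbers, CSF1 OE mouse 2019 was below the mean of 3 control mice in 9 of 9 genes, with log2 ratios from -1.53 (*Olig2*) to -0.62 (*Pdgfra*). The share of all genes that were lower in these comparisons is not given here, so both counts of 9 of 9 stand without a background. Each of these values rests on a single mouse of 1 genotype, and both mice stood at an end of the range of cell type sums. Mouse 1934 was lowest in the microglial sum and highest in the neuronal, endothelial, mural and fibroblast sums, and mouse 2019 was highest in the microglial sum and lowest in these others.

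With a term for this range in edgeR, 9 of 9 members were lower in CSF1 OE and 4 were called, where 9.5% of all genes were called, 7.24% lower and 2.25% higher. The 4 were *Mobp* (log2 fold change -1.01, adjusted p = 0.0323 from edgeR), *Cldn11* (-0.96, adjusted p = 0.0337), *Mog* (-0.94, adjusted p = 0.0409) and *Mag* (-0.84, adjusted p = 0.0416). *Mbp* turned from 0.19 to -0.61 and *Pdgfra* from 0.33 to -0.35, neither called (adjusted p = 0.273 and 0.541 from edgeR). With this term the median over all genes was 0.0022. Lower values were shared by genes of other cell types: 12 of 13 endothelial and 5 of 7 fibroblast genes were called lower, 13 of 13 neuronal genes were lower with 2 called, and 11 of 12 astrocyte genes were lower with 2 called. Among mural genes 11 of 12 were lower, and among those of choroid plexus and ependyma 6 of 6 tested, with 0 called in either list. Of the 10 microglial genes, 9 were higher and 1 was called. The part of these cell types in the fall of the 4 members was not tested. Over the 15 alternatives the adjusted p from edgeR, DESeq2 or limma ran from 0.0323 to 0.775 for *Mobp*, from 0.0337 to 0.713 for *Cldn11*, from 0.0409 to 0.791 for *Mog* and from 0.0416 to 0.785 for *Mag*. The range and the genotype overlap in these mice and, with a single mouse of 1 genotype on each side, can be told apart only in part.

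**Figure D4:**
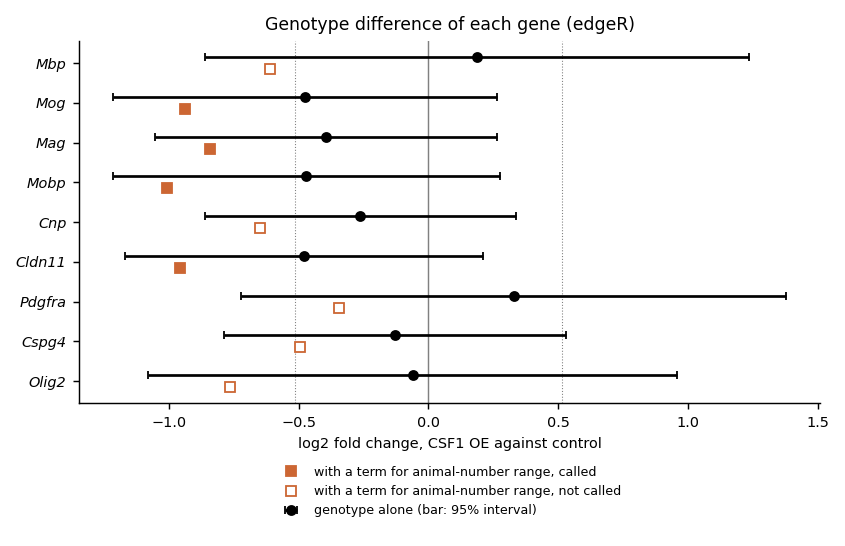
Log2 fold change of each gene, CSF1 OE against control, from edgeR with genotype alone (black points, bars are 95% intervals) and with the animal-number term (orange squares, filled where called); dotted lines mark the fold thresholds, 0.7 and its reciprocal. Every interval of the fit with genotype alone spans 0. With the term all 9 squares lie below 0, but they are drawn without intervals and only 4 of them are called.

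Other genes of the lineage were read from 3 lists. Of 20 other genes of myelinating oligodendrocytes, 18 were lower and 2 higher in CSF1 OE (55.2% of all genes were lower), with a median log2 fold change of -0.43 and 0 called. *Ugt8a*, which makes galactolipids of myelin, had 208 ± 77.9 CPM in control mice, against 154 ± 59.3 CPM in the CSF1 OE mice (SD, n = 4 each). The largest difference downward was that of *Opalin*, a membrane protein of mature oligodendrocytes, with 8.14 ± 2.54 and 4.60 ± 1.59 CPM (log2 fold change -0.82, adjusted p = 0.241 from edgeR).

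*Evi2a* had the largest difference upward, with 280.0 ± 76.8 and 340.1 ± 115 CPM (log2 fold change 0.28, adjusted p = 0.656 from edgeR). It did not follow the other myelin genes: it was highest in mouse 2019, at 452 CPM, and lowest in mouse 1934, at 168 CPM, the order of the microglial sum at both ends.

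Of 10 genes of committed and newly formed oligodendrocytes, 8 were lower and 2 higher, with a median of -0.34 and 0 called. *Gpr17*, a receptor of committed precursors, had 112 ± 34.1 CPM in control mice, against 88.6 ± 47.9 CPM in the CSF1 OE mice. *Nkx2-2*, a transcription factor of differentiation, had the largest difference downward, a log2 fold change of -0.64 (adjusted p = 0.413 from edgeR) at 1.30 ± 0.378 and 0.823 ± 0.335 CPM. *Itpr2*, with 218 ± 23.3 and 222 ± 20.9 CPM, and *Sirt2*, with 191 ± 20.4 and 196 ± 40.9 CPM, were the most abundant of this list. *Sirt2* had the highest log2 fold change in the list, 0.035. Like *Evi2a*, *Itpr2* did not follow the myelin genes (r = -0.64 with their pattern). It was highest in mouse 2019, at 244 CPM, and lowest in mouse 1934, at 194 CPM.

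Of 15 other precursor or lineage genes 13 were tested, and 7 were lower and 6 higher, with a median of -0.052 and 0 called. *Ptprz1*, a receptor phosphatase, had 65.2 ± 25.6 CPM in control mice, against 71.5 ± 50.5 CPM in the CSF1 OE mice, *Olig1*, the partner of *Olig2*, 32.1 ± 6.47 and 30.0 ± 13.5 CPM, and *Vcan*, which encodes the proteoglycan versican, 24.4 ± 11.5 and 21.9 ± 10.7 CPM. The extremes of the list were *Cacng4* (log2 fold change 0.32) and *Sox10*, a transcription factor of the whole lineage (-0.46, adjusted p = 0.482 from edgeR). Of the 43 tested genes of the 3 lists, 23 had r over 0.9 with the myelin pattern, beside 5.61% of all genes, and 3 had r below 0. With the term for animal numbers, 15 of the 43 were called, all lower, where 7.24% of all genes were called lower: 12 of the myelin list, 2 of the newly formed list and 1 of the precursor list. The same term called 12 of 13 endothelial, 5 of 7 fibroblast, 2 of 13 neuronal and 2 of 12 astrocyte genes lower. It called 0 of 12 mural and 0 of 6 choroid plexus and ependyma genes.

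Ratios between genes within a mouse do not depend on the scaling of the library. They were computed after the levels had been seen and are given as a description, with no test. Of the 36 pairs of members, 6 had ratios that did not overlap between the genotypes (16.7%), beside 9.9% of all pairs of genes tested, and 4 of these 6 share *Pdgfra*. The 9.9% was taken from log2 CPM with a prior count of 2 and the ratios of members from values without it, so the shares are not measured quite alike. *Mog* had 6.75, 3.52, 4.51 and 3.92 counts for each count of *Pdgfra* in control mice 1827, 1872, 1874 and 1934, and 2.65, 2.84, 1.98 and 3.46 in CSF1 OE mice 1931, 1932, 1936 and 2019. *Mobp* had 16.4, 8.95, 10.3 and 8.78 counts for each of *Pdgfra* in control and 6.70, 6.63, 4.69 and 7.01 in CSF1 OE mice.

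The ratios of *Mag* and *Cldn11* to *Pdgfra* and of *Mag* to *Cspg4* also lay lower in every CSF1 OE mouse than in every control mouse. *Mbp* had 2.66, 3.09, 2.69 and 3.18 counts for each of *Mobp* in control and 3.91, 3.99, 6.08 and 3.20 in CSF1 OE mice. The nearest control and CSF1 OE mouse lay close for *Mag* to *Pdgfra* (10.04 and 10.02) and farther apart for *Mobp* to *Pdgfra* (8.78 and 7.01). The exact 95% binomial intervals of the nearest mice overlapped for 6 of the 6 ratios. An example is *Mog* to *Pdgfra*, at 3.52 (3.07 to 4.05) in control mouse 1872 and 3.46 (2.86 to 4.22) in CSF1 OE mouse 2019. These intervals cover counting error only.

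**Figure D5:**
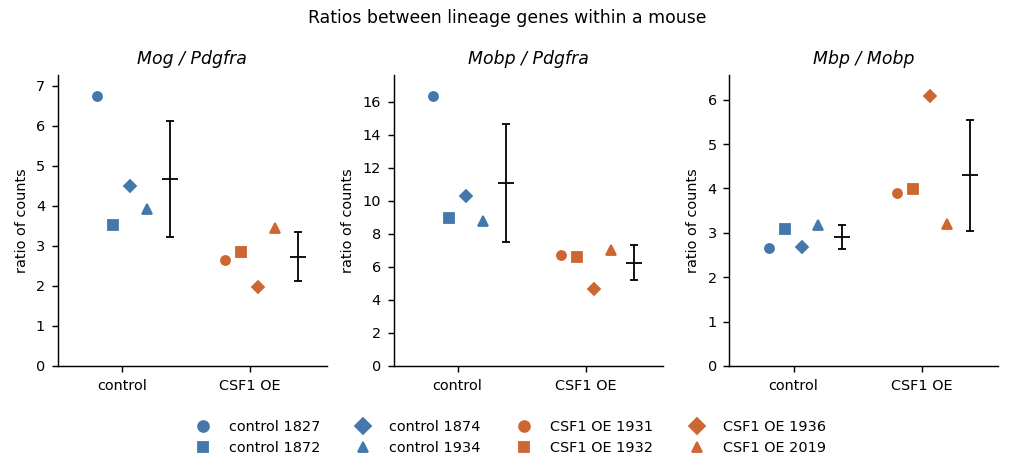
Ratio of counts (linear axis) of *Mog* to *Pdgfra*, *Mobp* to *Pdgfra* and *Mbp* to *Mobp* in control (blue) and CSF1 OE (orange) mice; each symbol is 1 mouse, and the black bar gives the mean ± SD of 4 mice. The panels were picked from the 6 of 36 pairs whose groups do not overlap, so the separation is not a finding of the figure. In each panel the nearest values are those of CSF1 OE mouse 2019 and a control mouse.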

How the data were processed

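Per the labels and the paper's methods, the authors aligned the read pairs with Bowtie 1.0.0 (build mm10) and made the deposited expected counts per gene symbol with RSEM 1.2.7. The annotation and strand setting are not given in the sources used here. A table of normalized values, a signal that the authors made by dividing each mouse's expected counts by 1 size factor, was deposited too, with 0 columns left unmapped. Expected counts were rounded, since 20.8% to 26.5% of them in each library were fractional.

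Tests used edgeR 4.0.16 under R 4.3.3 (TMM, filterByExpr, glmQLFit, glmQLFTest, Benjamini-Hochberg over all genes tested). Standard errors given beside edgeR's log2 fold changes were derived as the absolute log2 fold change over the square root of the test's F. The 95% intervals were built from them with a t quantile, so both are approximations. The fold thresholds are those of the study, whose EBSeq was not run. Log2 CPM used a prior count of 2. Lengths and positions were taken from GENCODE M21, where 95.2% of symbols were found. The replicate is the mouse. The labels do not say whether mice shared a litter.

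In simulated data with 200 genes of 13407 changed by a factor of 2, edgeR recovered 60% with 5.51% false calls, DESeq2 74% with 16.4% and limma 59.5% with 5.56%. The changed genes were drawn at random from all genes tested, whose median biological coefficient of variation was 0.175. The 9 members had values from 0.268 to 0.455, so these shares do not give the recovery for the members.

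Alternatives were DESeq2 1.42.0, upper-quartile factors, library totals alone, no filter beyond a single count, a minimum of 10 counts per library, limma 3.58.1 trend on log2 of the authors' normalized signal with a pseudocount of 1, a term for animal numbers 1931 to 1936, no fold threshold, and each mouse left out. Named genes are the 9 members, of each other list of the lineage the 3 most abundant genes and the extremes of fold change, of other cell types the most abundant gene where a value is given, the 10 genes most like either pattern, and *Csf1*. Some genes that this rule names are not reported here. The members and lists were chosen with earlier results of these data known.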

Additional observations from a re-analysis of the deposited data

How the results depend on the processing

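Of the 135 log2 fold changes of single members under another setting, 122 kept their direction and their side of the threshold, 4 were called (those with the term for animal numbers) and 9 changed direction, none of these called. The number of members called was 0 in 15 of 16 alternatives and 4 with the term for animal numbers, which also called 15 of the wider lineage genes in place of 0. With that term *Mbp* was -0.61 and *Pdgfra* -0.35, and without CSF1 OE mouse 1936 they were -0.31 and -0.10. *Cspg4* was 0.013 without control mouse 1934 and 0.053 without CSF1 OE mouse 2019, and *Olig2* was 0.13 without 1934, 0.027 without CSF1 OE mouse 1932 and 0.23 without 2019. With 1 mouse left out, the other ends of these ranges were 0.48 for *Mbp* and 0.68 for *Pdgfra* (without 1934), and -0.37 for *Cspg4* and -0.59 for *Olig2* (without 1936). The other 5 members stayed below 0, with *Mog* from -0.69 to -0.22, *Mag* from -0.62 to -0.19, *Mobp* from -0.69 to -0.24, *Cnp* from -0.49 to -0.084 and *Cldn11* from -0.66 to -0.27, lowest without 1936 and highest without 2019 (*Mog* without 1934). The summed myelin genes then had log2 ratios from -0.49 to 0.093 and the summed precursor genes from -0.27 to 0.38.

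The number of genes called, 59, was 414 with DESeq2, 104 with limma, 19 with upper-quartile factors, 9 with library totals alone and 1273 with the term for animal numbers. With 1 mouse left out it ran from 3 (without control mouse 1872 or 1874) to 164 (without control mouse 1827). It was 10 without control mouse 1934, and 4, 18 and 8 without CSF1 OE mice 1931, 1932 and 1936.

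Without mice 2019 and 1936, the correlations with *Mbp* no longer passed after adjustment (exact permutation, r = 0.832 for *Mog*, 0.789 for *Mag*, 0.828 for *Mobp*, 0.803 for *Cnp*, 0.812 for *Cldn11*, 0.925 for *Pdgfra*, 0.820 for *Cspg4* and 0.794 for *Olig2*). This test has 6 mice. With 1 mouse left out, r ran from 0.690 to 0.906 for *Mog*, 0.728 to 0.917 for *Mag*, 0.6995 to 0.934 for *Mobp*, 0.815 to 0.937 for *Cnp* and 0.640 to 0.925 for *Cldn11*, lowest without 2019 in these 5. It ran from 0.899 to 0.996 for *Pdgfra*, 0.861 to 0.976 for *Cspg4* and 0.911 to 0.974 for *Olig2*. The cause of these changes was not tested. No paired analysis was possible because the labels do not say which mice shared a litter.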
